A study of Mus musculus with 6 samples.

Results

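The genes described here are 32 genes of the heart muscle cell, chosen by gene name: components of the sarcomere, proteins that move calcium, the natriuretic peptides, the muscle creatine kinase and myoglobin. A row with the gene's name was found for 30 of them among the 33682 rows of the deposited gene table, and 0 of these symbols recurred. Ttn (titin) and Tcap (telethonin) had no row under those symbols and were not analysed here. RNA sequencing had been done on 6 samples of cultured neonatal rat heart cells, labelled as wild type. In 3 of them the cells had conditioned medium of ALOX5-/- mast cells (Alox5KO medium below), and in the other 3 that of WT mast cells (WT medium). All mast cells were bone marrow-derived and had been treated with TNF-a, an inflammatory cytokine, so this stimulus is shared by both groups. Alox5 encodes the lipoxygenase that begins leukotriene synthesis. The sample labels name the sequenced cells as cardiomyocytes, while the study's design text speaks of fibroblasts. The labels do not say whether the replicates were separate cultures, so the p-values below reflect only how far these samples scatter, and that scatter may be technical.

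Heart muscle contracts when calcium released from the sarcoplasmic reticulum binds troponin on the thin filament and lets the myosin heads of the thick filament pull on actin. The Z-disc anchors the thin filaments, the M-band holds the thick filaments in register, and the calcium pump SERCA, restrained by phospholamban, refills the store. A working cardiomyocyte carries these transcripts among its most abundant ones, whereas cultured cardiac fibroblasts are known mainly for collagen and other matrix transcripts.

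Levels are given as FPKM, read fragments corrected for gene length and library size, so that genes of unequal length can be compared. Whole read numbers could be recovered from the deposited values and summed to between 13284088 and 15766187 per library. In every library most members were at low levels. Over all 6 libraries 4 of the 30 averaged at least 10 FPKM, 11 lay between 1 and 10, 9 between 0.1 and 1, and 5 above 0 but under 0.1, and Myl2 was listed at 0 throughout. The members together summed to 183 to 209 FPKM with Alox5KO medium and to 125 to 176 FPKM with WT medium, which is 0.0337% to 0.0402% and 0.0236% to 0.0304% of all FPKM. Atp2a2 and Tnnt2 alone made up 66.2% to 71.0% of the members' sum with Alox5KO medium and 54.5% to 64.9% with WT medium.

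**Figure D1:**
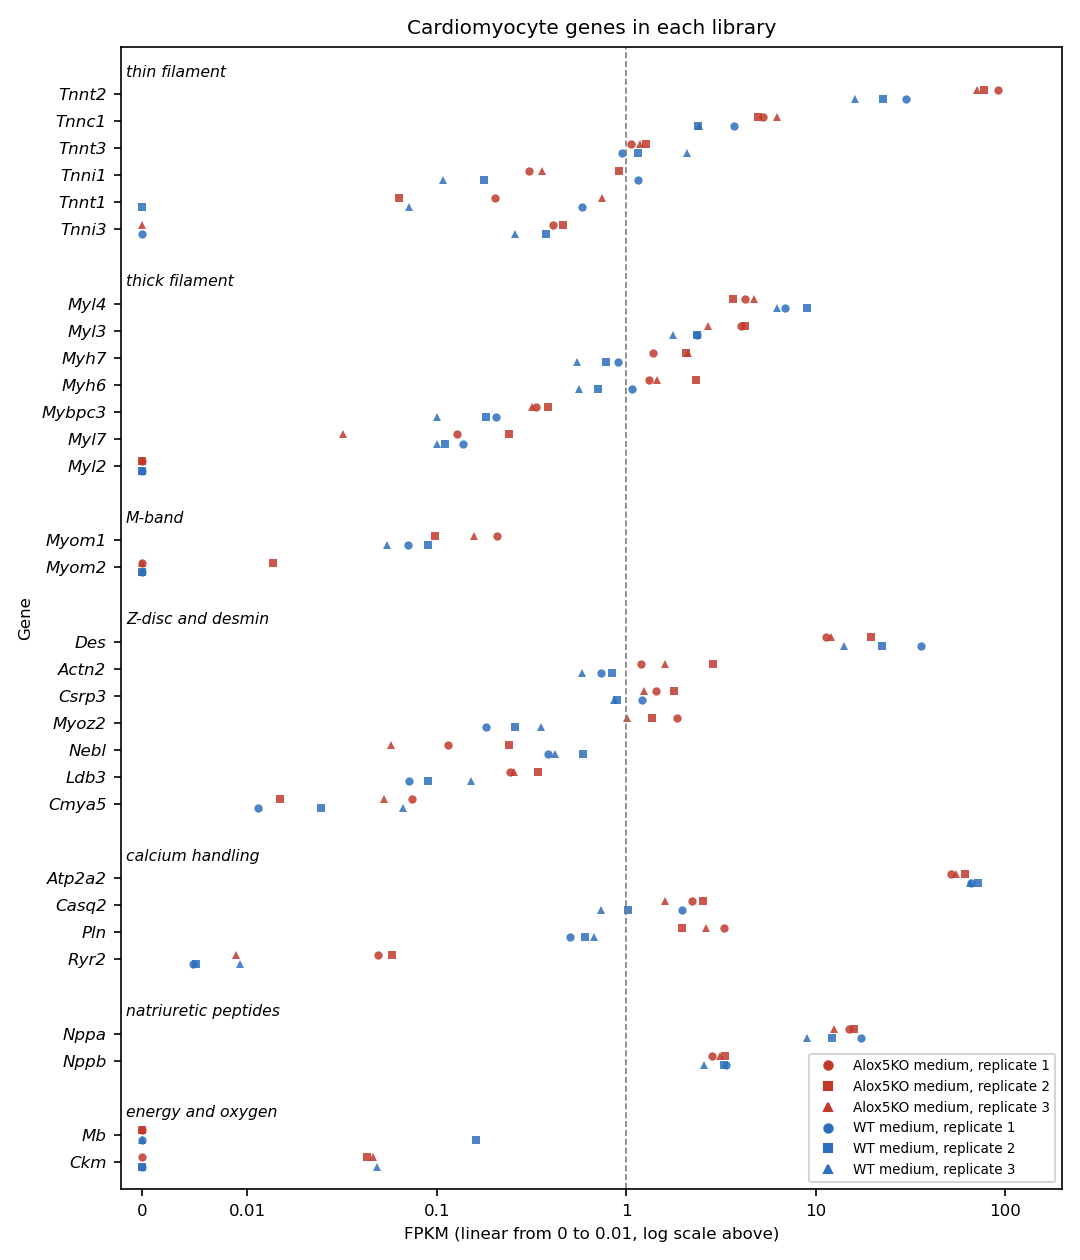
Level of each of the 30 genes in each of the 6 libraries, in FPKM (linear from 0 to 0.01, logarithmic above), with the Alox5KO-medium libraries in red above the WT-medium libraries in blue and the dashed line at 1 FPKM. Atp2a2 and Tnnt2 lie far to the right of all other members with Alox5KO medium, and 15 of the 30 genes average under 1 FPKM.

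The cardiomyocyte label was checked against markers of the cell types such a culture could hold. Of 11 defining cardiomyocyte markers in the table, 6 averaged at least 1 FPKM over all libraries. Of these 6, Myh6, Actn2 and Pln averaged 0.781, 0.721 and 0.596 FPKM with WT medium and reached 1 FPKM through Alox5KO medium. Tnnt2, cardiac troponin T, and Nppa, atrial natriuretic peptide, were the highest of the 11. They had 79.9 ± 10.6 and 14.5 ± 1.81 FPKM (SD, n = 3) with Alox5KO medium and 23.0 ± 6.92 and 12.9 ± 4.25 FPKM (SD, n = 3) with WT medium. Tnni3, cardiac troponin I, had 11 reads in the 3 Alox5KO-medium libraries and 7 in the 3 WT-medium libraries. Myl2, the ventricular regulatory light chain, was listed at 0 throughout, which was not read as absence, because Rpl8, a ribosomal protein gene that all cells need, was itself listed at 0 in 4 libraries. The median defining marker lay between 1.20 and 1.97 FPKM with Alox5KO medium and between 0.505 and 0.607 FPKM with WT medium. The median of 13 fibroblast markers was far higher, at 91.6 to 207 FPKM with Alox5KO medium and 336 to 841 FPKM with WT medium. The sums of these 13 overlapped between groups, at 11620 to 13436 FPKM with Alox5KO medium and 12048 to 13012 FPKM with WT medium. The medians thus do not show a fall of the whole list. Among its genes Dcn had 134 ± 66.3 FPKM (SD, n = 3) with Alox5KO medium and 2219 ± 711 FPKM (SD, n = 3) with WT medium. Col1a1, a chain of fibrillar collagen, had 3741 ± 483 FPKM (SD, n = 3) with Alox5KO medium and 3290 ± 577 FPKM (SD, n = 3) with WT medium. The median levels of the lists go against the cardiomyocyte label. Averaged over all libraries, Tnnt2 and Nppa, the highest of the defining markers, exceeded 86.0% and 57.4% of genes averaging at least 1 FPKM. The genes are described below without assigning them to a cell type.

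The tested markers of smooth muscle and pericytes moved with the groups, in a list chosen with earlier results of these data known. The 12 genes of that list summed to 5038 to 6921 FPKM with Alox5KO medium and to 1073 to 1208 FPKM with WT medium, and 0 of them were at 0 in all libraries. Most of the sum came from Acta2 and Tagln. These averaged 2775 and 2945 FPKM with Alox5KO medium and 340 and 707 FPKM with WT medium. All 9 genes of the list that were tested rose, or 7 without Alox5KO-medium replicate 1, and 0 fell (limma at adjusted p under 0.05, with 0 falls also at unadjusted p under 0.05 and by limma voom on the recovered reads). Myocd, Rgs5 and Synm averaged under 1 FPKM and were not tested. They had 62, 2 and 48 reads in that order with Alox5KO medium and 55, 3 and 13 with WT medium. Of the 13 fibroblast markers 3 rose, 4 fell and 6 did not pass the test. Over all tested genes limma called 10% higher and 10.6% lower. The 11 skeletal myoblast markers summed to 0.569 to 0.961 FPKM with Alox5KO medium and to 0.910 to 1.25 FPKM with WT medium, and 5 of them, Myod1 and Pax7 included, were at 0 in every library. The 9 mast cell markers summed to 22.3 to 32.3 FPKM with Alox5KO medium and 43.4 to 61.4 FPKM with WT medium. Most of this came from Cpa3, a mast cell carboxypeptidase, which averaged 19.6 FPKM with Alox5KO medium and 45.4 FPKM with WT medium. Cma1 did not share this difference, with 290 reads with Alox5KO medium and 260 with WT medium. Kit went the other way, at 1.01 FPKM with Alox5KO medium and 0.618 FPKM with WT medium. Hdc and Tpsab1 averaged 0.090 and 0.0097 FPKM over all libraries, and 4 of the list, Fcer1a and Ms4a2 included, were at 0 in every library. In the 7 endothelial markers the sums ran from 10.6 to 12.7 FPKM with Alox5KO medium and from 13.2 to 15.3 FPKM with WT medium. Nearly all of this came from Egfl7 and Tek. Cdh5, Kdr, Tie1 and Vwf averaged 0.0090 to 0.042 FPKM over all libraries, and Emcn was listed at 0 throughout. For 7 leukocyte markers the sums ran from 23.5 to 38.3 FPKM with Alox5KO medium and from 31.8 to 36.2 FPKM with WT medium. Most of this came from Cd14 and Lyz2, and the rest averaged from 0.033 FPKM (C1qa) to 1.84 FPKM (Cd68) over all libraries. The part of any of these cell types in the results on the members was not tested. In such bulk samples more cells of a type cannot be told apart from more RNA per cell.

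**Figure D2:**
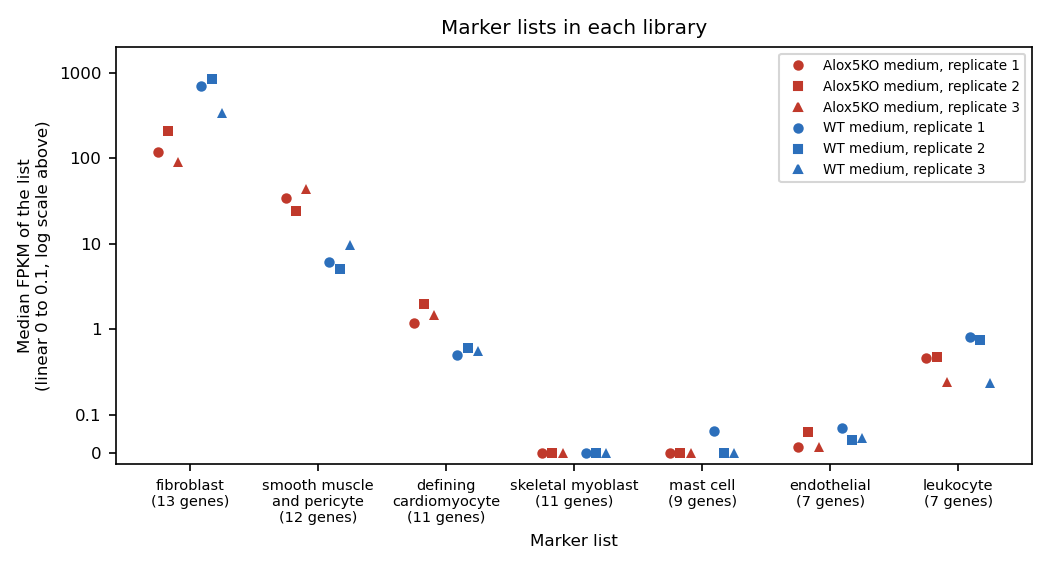
Median FPKM of 7 marker lists in each library (linear from 0 to 0.1, logarithmic above), with Alox5KO medium in red to the left of WT medium in blue and the number of genes of each list in the table below its name. In every library the fibroblast list is the highest, and the defining cardiomyocyte list lies between 0.505 and 1.97 FPKM.

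Comparing Alox5KO medium with WT medium asks whether the loss of Alox5 from the mast cells altered these transcripts in the cells given their medium. Troponin T2, troponin C1 and phospholamban were higher with Alox5KO medium, as was the myosin heavy chain Myh7, and the atrial light chain Myl4 was lower. The test was limma on log2(FPKM + 1), two-sided, with Benjamini-Hochberg adjustment over all 12341 genes that averaged at least 1 FPKM. Of the members 15 passed this filter, of which 4 rose, 1 fell and 10 did not pass the test. Among all tested genes 10% were called higher and 10.6% lower, against 26.7% and 6.67% of these 15 members. The filter bears on this count, because Pln, Actn2, Myh7, Myh6 and Csrp3 averaged under 1 FPKM with WT medium and passed it through their level with Alox5KO medium. The median log2 fold change of the 15 was 0.50, and that of all tested genes was -0.00082. With the filter raised to a mean of 5 FPKM only Atp2a2, Tnnt2, Des, Nppa and Myl4 remained. The members' median was then -0.27, the value of Atp2a2, which did not pass the test. With no filter, which lets in low genes whose fold changes this scale understates, the median was 0.11.

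**Figure D3:**
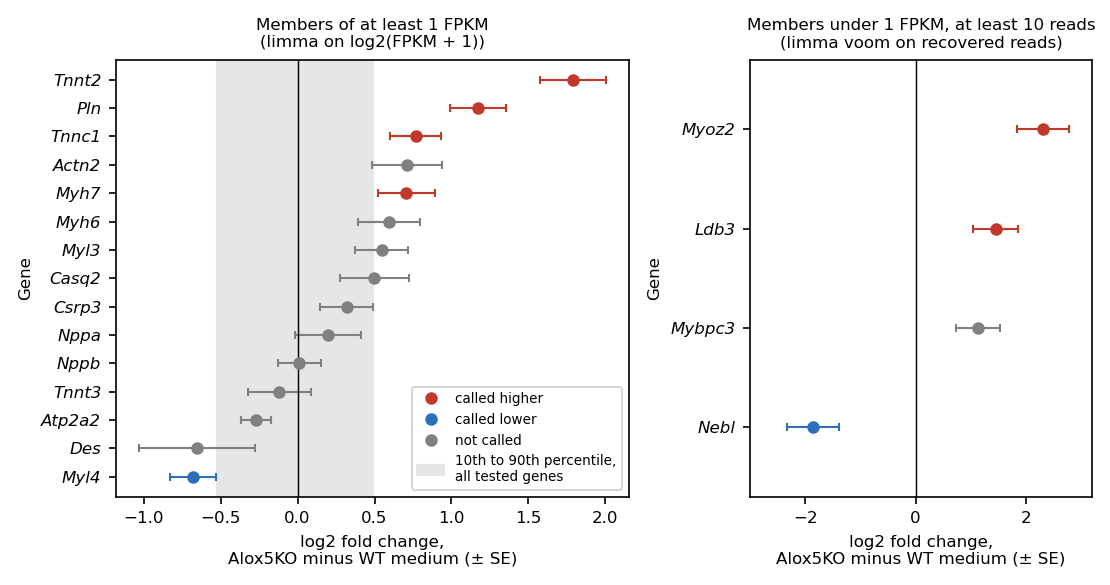
Log2 fold change of Alox5KO medium minus WT medium with its standard error, on the left for the 15 members of at least 1 FPKM on the log2(FPKM + 1) scale and on the right for 4 members under 1 FPKM fitted on recovered reads. Red marks genes called higher, blue genes called lower and grey genes not called. The grey band runs from the 10th percentile of all tested genes at -0.52 to the 90th at 0.49. Among the genes in the left panel, whose scale compresses low values, Tnnt2 at 1.79 lies farthest from it. On recovered reads Pln rose by 2.11 and Tnnt2 by 1.86.

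Among the thin filament genes Tnnt2 stood apart. Tnnt2 (ENSRNOG00000033734; chromosome 13, 52662996 to 52680990 in the table's own coordinates, for which no source used here names a rat build) encodes cardiac troponin T, which ties the troponin complex to tropomyosin. Its values were 91.6, 77.3 and 71.0 FPKM with Alox5KO medium and 30.0, 22.8 and 16.1 FPKM with WT medium. The lowest Alox5KO-medium library thus lay above every WT-medium library by more than 2-fold. The ratio of the group means was 3.48, from 4493 reads with Alox5KO medium and 1155 with WT medium. Its log2 fold change was 1.79 (SE 0.21, limma, Benjamini-Hochberg adjusted p = 0.0010), and adjusted p was at most 0.0071 over the alternatives to this fit. Averaged over the libraries Tnnt2 exceeded 86.0% of tested genes.

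Tnnc1 (ENSRNOG00000018943; chromosome 16, 7292096 to 7295465) encodes the calcium sensor of cardiac and slow muscle troponin. It had 5.28, 4.94 and 6.25 FPKM with Alox5KO medium and 3.71, 2.40 and 2.44 FPKM with WT medium. The groups did not overlap, and the log2 fold change was 0.77 (SE 0.16, limma, Benjamini-Hochberg adjusted p = 0.010, and 0.046 at most over the alternatives to this fit). Tnnt3, the fast skeletal troponin T, had 1.06, 1.27 and 1.18 FPKM with Alox5KO medium and 0.951, 1.15 and 2.10 FPKM with WT medium. WT-medium replicate 3 was the highest, the groups overlapped, and the log2 fold change of -0.12 did not pass the test (limma, Benjamini-Hochberg adjusted p = 0.74).

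The other troponin genes were close to the limit of detection. Cardiac troponin I, Tnni3, which holds the thin filament off at low calcium, had 0.411, 0.462 and 0 FPKM with Alox5KO medium and 0, 0.379 and 0.259 FPKM with WT medium, on 18 reads at most 6 of which came from 1 library. Its row overlaps Dnaaf3 on the same strand, so these few reads are uncertain. Tnni1, the slow skeletal form that the fetal heart also uses, had 6, 19 and 7 reads with Alox5KO medium and 21, 3 and 2 reads with WT medium. The slow skeletal troponin T, Tnnt1, had 15 reads in all with Alox5KO medium and 9 with WT medium. In both genes the groups overlapped, and neither had enough reads for the test on reads described below.

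The troponin subunits were thus present at unequal levels. Per kilobase Tnnt2 exceeded Tnnc1 by 11.4- to 17.3-fold in the Alox5KO-medium libraries and by 6.63- to 9.52-fold in the WT-medium libraries, and the groups did not overlap. Tnnt2 and Tnni1 are neighbours on chromosome 13 with 25698 bases and 1 other row of the table between them. Despite this proximity Tnni1 averaged 0.526 ± 0.335 FPKM (SD, n = 3) with Alox5KO medium and 0.481 ± 0.588 FPKM (SD, n = 3) with WT medium. Tnni3 and Tnnt1 are likewise neighbours, 2781 bases apart on chromosome 1. Set against the pump gene Atp2a2, described below, the FPKM of Tnnt2 was 1.26 to 1.77 times as high with Alox5KO medium and 0.247 to 0.456 times as high with WT medium.

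**Figure D4:**
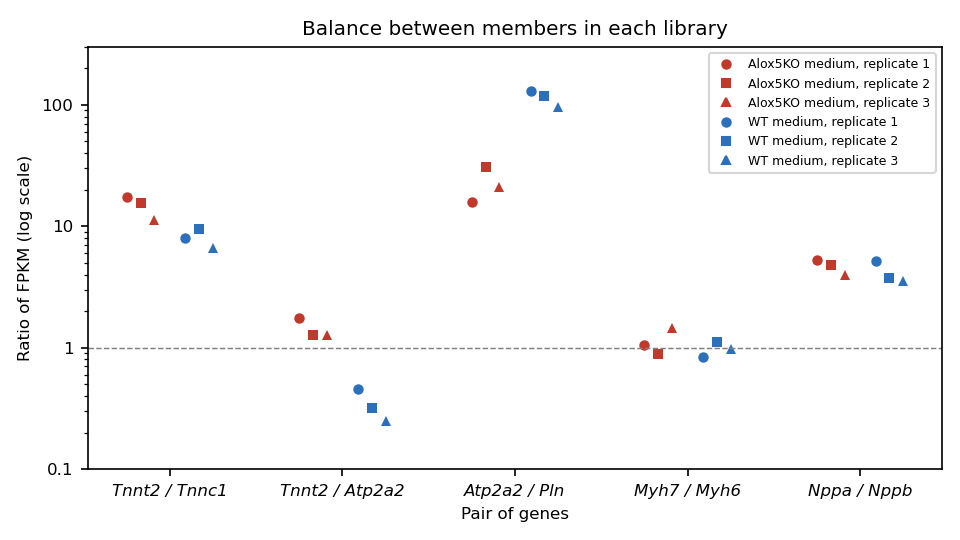
Ratio of the FPKM of 5 pairs of genes in each library on a log scale, with Alox5KO medium in red to the left of WT medium in blue and a dashed line at equal levels. Tnnt2 over Tnnc1 and Tnnt2 over Atp2a2 are higher in every Alox5KO-medium library, Atp2a2 over Pln is lower in every one, and the other 2 pairs overlap between groups.

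Of the 7 thick filament genes 4 were tested on the FPKM scale. Of these 1 rose and 1 fell, beside 10% and 10.6% of all tested genes. The riser, Myh7, averaged 0.744 FPKM with WT medium and passed the filter through its level with Alox5KO medium. Myl4 (ENSRNOG00000050675; chromosome 10, 92628356 to 92638100), the essential light chain of the atrium and the fetal heart, had 4.23, 3.65 and 4.74 FPKM with Alox5KO medium and 6.88, 8.99 and 6.27 FPKM with WT medium. Every Alox5KO-medium library was below every WT-medium library. It fell by 0.68 on the log2 scale (SE 0.15, limma, Benjamini-Hochberg adjusted p = 0.012, and 0.049 at most over the alternatives to this fit). Myl3, the ventricular essential light chain, had 4.02, 4.24 and 2.71 FPKM with Alox5KO medium and 2.36, 2.36 and 1.76 FPKM with WT medium. Its groups did not overlap either, but the log2 fold change of 0.55 missed the threshold (limma, Benjamini-Hochberg adjusted p = 0.055), and over the alternatives to this fit adjusted p ran from 0.025 to 0.16. Myl3 passed with TPM scaling (limma, Benjamini-Hochberg adjusted p = 0.044) and without Alox5KO-medium replicate 3, which gave the 0.025. The atrial regulatory light chain Myl7 had 0.128, 0.239 and 0.0320 FPKM with Alox5KO medium and 0.138, 0.110 and 0.101 FPKM with WT medium, from 13 reads in all with Alox5KO medium and 10 with WT medium. Its groups overlapped.

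The heavy chains Myh6, the fast alpha form that dominates the adult rat ventricle, and Myh7, the slower beta form of the fetal heart, lie next to each other on chromosome 15 with 4722 bases between them. They are near-identical over much of their length, so how reads were divided between them is uncertain. Myh7 had 1.38, 2.06 and 2.13 FPKM with Alox5KO medium and 0.900, 0.783 and 0.549 FPKM with WT medium. Myh6 had 1.32, 2.33 and 1.46 FPKM with Alox5KO medium and 1.07, 0.706 and 0.562 FPKM with WT medium. In neither gene did the groups overlap, and the 2 forms were at similar levels, with a ratio of Myh7 to Myh6 of 0.884 to 1.46 with Alox5KO medium and 0.839 to 1.11 with WT medium. Myh7 rose by 0.71 on the log2 scale (SE 0.18, limma, Benjamini-Hochberg adjusted p = 0.024). It missed the threshold without Alox5KO-medium replicate 2 or 3 or without WT-medium replicate 2 or 3, where the adjusted p was 0.068, 0.089, 0.062 and 0.060 in that order (limma, Benjamini-Hochberg). The log2 fold change of Myh6, 0.59, did not pass (limma, Benjamini-Hochberg adjusted p = 0.073), although Myh6 passed with limma voom on recovered reads (adjusted p = 0.019) over the same genes. In that fit, where adding 1 to FPKM does not compress low values, the log2 fold changes of Myh7 and Myh6 were 1.35 and 1.16. The sum of both chains was 2.70, 4.40 and 3.59 FPKM with Alox5KO medium and 1.97, 1.49 and 1.11 FPKM with WT medium.

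The Z-disc genes of at least 1 FPKM did not pass the test. Actn2, the sarcomeric alpha-actinin that crosslinks thin filaments, had 1.20, 2.88 and 1.60 FPKM with Alox5KO medium and 0.740, 0.842 and 0.581 FPKM with WT medium. Alox5KO-medium replicate 2 was the highest and no library of the groups overlapped, yet the log2 fold change of 0.71 did not pass (limma, Benjamini-Hochberg adjusted p = 0.058). It passed with limma voom on recovered reads (log2 fold change 1.33, adjusted p = 0.030) and without Alox5KO-medium replicate 1 (limma, Benjamini-Hochberg adjusted p = 0.039). Csrp3, the muscle LIM protein, had 1.44, 1.78 and 1.24 FPKM with Alox5KO medium and 1.22, 0.889 and 0.863 FPKM with WT medium. Alox5KO-medium replicate 3 lay only just above WT-medium replicate 1, and the log2 fold change of 0.32 did not pass (limma, Benjamini-Hochberg adjusted p = 0.25).

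Desmin, Des, is the intermediate filament that links Z-discs to one another and is also made by smooth muscle cells and pericytes. It had 11.4, 19.6 and 12.1 FPKM with Alox5KO medium and 35.9, 22.3 and 14.1 FPKM with WT medium. The WT-medium libraries differed among themselves by more than 2-fold, the groups overlapped, and the log2 fold change of -0.65 did not pass (SE 0.38, limma, Benjamini-Hochberg adjusted p = 0.31). Desmin was the most abundant of the Z-disc and desmin genes, at 1466 reads with Alox5KO medium and 2181 with WT medium.

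Some members below the abundance filter had enough reads to be tested as counts. A limma voom fit was run on the recovered reads of 13386 genes, those averaging at least 10 reads, an alternative added after the data had been seen. It called 11.7% of those genes higher and 10.5% lower. It covered 19 members, of which 8 were called higher and 2 lower, a share of 42.1% and 10.5%. Of the 4 members in it that averaged under 1 FPKM, 2 rose, 1 fell and 1 did not pass. This filter bears on the count as well, because Myoz2, Ldb3 and Mybpc3 averaged under 10 reads with WT medium and passed it through their level with Alox5KO medium. With each library left out in turn, 4 of the 10 called members kept their call every time, namely Tnnt2, Pln, Myh7 and Myoz2. Tnnc1 lost its call on reads without Alox5KO-medium replicate 3, WT-medium replicate 2 or WT-medium replicate 3, Myh6 without WT-medium replicate 2 or 3, and Actn2 without Alox5KO-medium replicate 3 or any WT-medium replicate. Myl4 kept its call on reads only without WT-medium replicate 3. Members called higher numbered 8 with all libraries, 5 without WT-medium replicate 3 and 4 without WT-medium replicate 2. Members called lower numbered 2 with all libraries and 1 without Alox5KO-medium replicate 2 or WT-medium replicate 1, and both calls were lost without Alox5KO-medium replicate 1, Alox5KO-medium replicate 3 or WT-medium replicate 2.

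Myoz2, calsarcin-1, which binds calcineurin at the Z-disc, had 33, 26 and 18 reads with Alox5KO medium and 3, 4 and 6 reads with WT medium. All Alox5KO-medium libraries were above all WT-medium ones, at 1.41 ± 0.422 FPKM (SD, n = 3) and 0.265 ± 0.0862 FPKM (SD, n = 3), and the log2 fold change was 2.31 (SE 0.48, limma voom, Benjamini-Hochberg adjusted p = 0.0053, and 0.031 at most with a library left out). Ldb3, the PDZ-LIM protein cypher, had 22, 33 and 23 reads with Alox5KO medium and 6, 7 and 13 reads with WT medium. Its groups did not overlap and it rose by 1.45 on the log2 scale (limma voom, Benjamini-Hochberg adjusted p = 0.026), but this was lost without Alox5KO-medium replicate 2, WT-medium replicate 1 or WT-medium replicate 2, where the adjusted p was 0.067, 0.12 and 0.090 (limma voom, Benjamini-Hochberg). Nebl, the nebulin-related Z-disc protein nebulette, went the other way. It had 8, 18 and 4 reads with Alox5KO medium and 25, 36 and 28 reads with WT medium, and fell by 1.86 on the log2 scale (limma voom, Benjamini-Hochberg adjusted p = 0.017). This fall missed the threshold without Alox5KO-medium replicate 1 or 3 or WT-medium replicate 2, where the adjusted p was 0.066, 0.074 and 0.054 (limma voom, Benjamini-Hochberg). The calls of Nebl and Ldb3 also depended on the fit. With limma on log2(FPKM + 1) and no filter, Myoz2 passed (Benjamini-Hochberg adjusted p = 0.013). Nebl and Ldb3 did not pass in that fit (limma, Benjamini-Hochberg adjusted p = 0.055 and 0.074).

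Mybpc3, the cardiac myosin-binding protein C of the thick filament, had 0.332, 0.385 and 0.317 FPKM with Alox5KO medium and 0.205, 0.183 and 0.0997 FPKM with WT medium. The groups did not overlap, and the log2 fold change of 1.13 did not pass (limma voom, Benjamini-Hochberg adjusted p = 0.064). The M-band protein myomesin, Myom1, had 36 reads with Alox5KO medium and 15 with WT medium, and its relative Myom2 had a single read, in Alox5KO-medium replicate 2. Cmya5, which tethers the sarcoplasmic reticulum to the Z-disc, had 27 reads with Alox5KO medium and 18 with WT medium, spread over overlapping libraries. These 3 averaged under 10 reads and were not tested on reads.

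Of the calcium handling genes Pln rose, and the difference in Atp2a2 did not pass the test. Atp2a2 (ENSRNOG00000001285; chromosome 12, 39553903 to 39603326) encodes the calcium pump SERCA2, of which heart muscle uses one isoform and most other cells another, and the table does not separate them. It was the most abundant member, with 51.8, 61.2 and 55.2 FPKM with Alox5KO medium and 65.8, 72.2 and 65.4 FPKM with WT medium, and exceeded 88.4% of tested genes. Every Alox5KO-medium library was below every WT-medium library. The log2 fold change of -0.27 did not pass (SE 0.10, limma, Benjamini-Hochberg adjusted p = 0.091, and 0.059 to 0.28 over the alternatives to this fit).

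Pln (ENSRNOG00000000413; chromosome 20, 34633157 to 34642904) encodes phospholamban, the inhibitor of that pump. It had 3.28, 1.97 and 2.64 FPKM with Alox5KO medium and 0.505, 0.607 and 0.675 FPKM with WT medium. The groups were well separated, with 274 reads in all with Alox5KO medium and 56 with WT medium. On the log2 scale Pln rose by 1.17 (SE 0.18, limma, Benjamini-Hochberg adjusted p = 0.0019, and 0.012 at most over the alternatives to this fit). On reads, where low values are not compressed by the pseudocount, the rise was 2.11 (SE 0.32, limma voom, Benjamini-Hochberg adjusted p = 8.2e-04). Pln lies within the span of Cep85l on the other strand, and no source used here says whether reads were counted by strand. Cep85l had 1.57, 1.94 and 1.18 FPKM with Alox5KO medium and 1.36, 0.979 and 1.35 FPKM with WT medium, so its groups overlapped where those of Pln did not. Per kilobase Atp2a2 exceeded Pln by 15.8- to 31.1-fold with Alox5KO medium and by 96.8- to 130-fold with WT medium.

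Casq2, the calcium-binding protein calsequestrin of the cardiac sarcoplasmic reticulum, had 2.22, 2.54 and 1.59 FPKM with Alox5KO medium and 1.97, 1.02 and 0.739 FPKM with WT medium. WT-medium replicate 1 lay within the range of the Alox5KO-medium libraries, and the log2 fold change of 0.50 did not pass (limma, Benjamini-Hochberg adjusted p = 0.17). Ryr2, the calcium release channel, had very few reads for a gene of 14817 bases, namely 11, 14 and 2 with Alox5KO medium and 1, 1 and 2 with WT medium. Alox5KO-medium replicates 1 and 2 held most of them, while replicate 3 was at the level of the WT-medium libraries, and the gene was too low for the test on reads.

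The natriuretic peptide genes, which atrial cells express and stressed ventricular cells take up again, showed no difference past the threshold. Nppa, atrial natriuretic peptide, had 15.1, 16.0 and 12.5 FPKM with Alox5KO medium and 17.5, 12.3 and 9.05 FPKM with WT medium. Both the highest and the lowest library were from WT medium, and the log2 fold change of 0.20 did not pass (limma, Benjamini-Hochberg adjusted p = 0.58). Nppb, brain natriuretic peptide, lies 10791 bases from Nppa on chromosome 5 and had 2.84, 3.31 and 3.14 FPKM with Alox5KO medium and 3.38, 3.28 and 2.57 FPKM with WT medium. The log2 fold change of 0.011 did not pass (SE 0.14, limma, Benjamini-Hochberg adjusted p = 0.97). The ratio of Nppa to Nppb was 4.71 ± 0.673 (SD, n = 3) with Alox5KO medium and 4.14 ± 0.893 (SD, n = 3) with WT medium.

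Ckm, the muscle creatine kinase that buffers ATP, and Mb, the oxygen store myoglobin, were near 0. Ckm had 2 reads with Alox5KO medium and 1 with WT medium, and Mb had 0 with Alox5KO medium and 2 with WT medium. As for Myl2, values at 0 were not read as absence.

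The libraries of a group differed in how much of these transcripts they carried. Among the 19 members with a mean of at least 10 reads, Alox5KO-medium replicate 2 was the highest of its group for 13, whereas it was the highest for 32.5% of all tested genes. WT-medium replicate 1 was the highest of its group for 11 of the 19, against 28.4% of all tested genes. The 19 members were taken by reads and the 12341 tested genes by a mean of at least 1 FPKM, so these sets were filtered differently. Without Atp2a2 and Tnnt2 the members summed to 58.7, 70.8 and 56.3 FPKM with Alox5KO medium and to 79.9, 59.7 and 44.0 FPKM with WT medium. The WT-medium sums differed the more among themselves, with desmin contributing 35.9, 22.3 and 14.1 FPKM to them. In the same libraries the number of members at 1 FPKM or more was 16, 16 and 16 with Alox5KO medium and 12, 10 and 9 with WT medium.

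**Figure D5:**
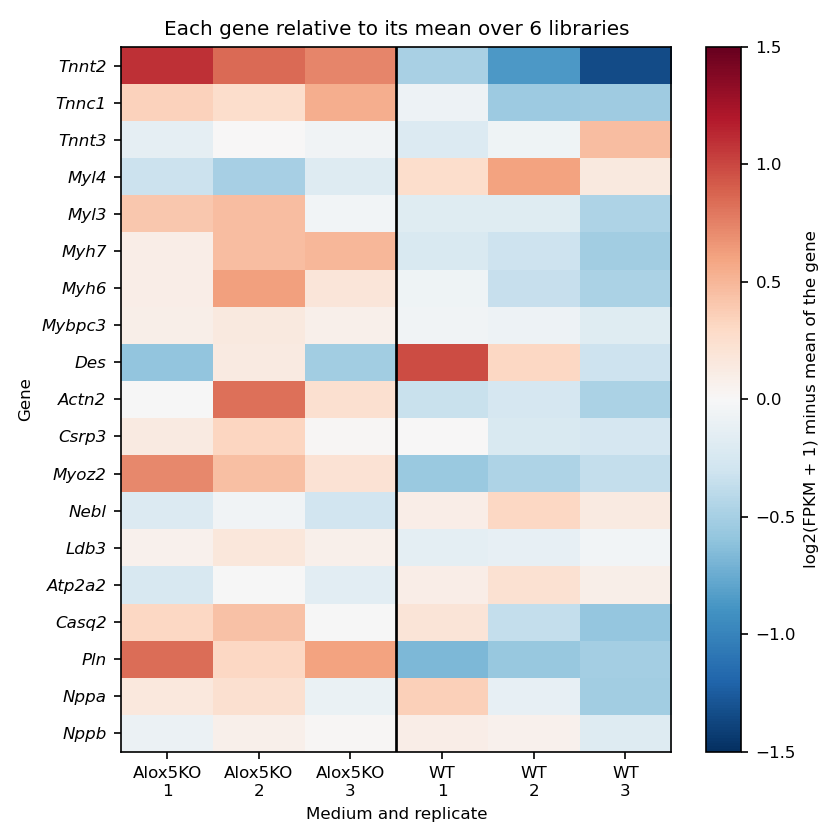
Heat map of log2(FPKM + 1) minus the gene's mean over the 6 libraries, for the 19 members with a mean of at least 10 reads (rows) in each library (columns, Alox5KO medium left of the black line and WT medium right of it). Tnnt2, Pln and Myoz2 are red in all 3 Alox5KO-medium libraries, Myl4 and Nebl are blue there, and desmin is highest in WT-medium replicate 1.

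Most tested genes of the sarcomere and Z-disc outside the 32 rose. Like the members and the other lists, these genes were chosen with earlier results of these data known. The table held 48 such genes and 16 were tested, of which 11 rose and 0 fell (limma at adjusted p under 0.05, with 0 falls also at unadjusted p under 0.05 and by limma voom), beside the 10% of all tested genes that rose, and 1 of the 16 passed the filter through its level with Alox5KO medium alone. Their median log2 fold change was 1.42. Tpm2, a tropomyosin that many muscle and stromal cells express, was the most abundant of them at 889 ± 124 FPKM (SD, n = 3) with Alox5KO medium and 283 ± 24.5 FPKM (SD, n = 3) with WT medium. Cryab, a small heat shock protein that binds desmin and titin, rose by 2.99 (SE 0.12, limma, Benjamini-Hochberg adjusted p = 1.1e-06), at 413 ± 28.2 FPKM (SD, n = 3) with Alox5KO medium and 51.3 ± 6.28 FPKM (SD, n = 3) with WT medium. Pdlim3, Tpm1 and the stretch-responsive Ankrd1 rose by 5.43, 2.12 and 2.03.

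Of 33 other calcium handling genes in the table, 21 were tested. Among these 3 rose and 4 fell, beside 10% and 10.6% of all tested genes, their median log2 fold change was 0.040, and the rises numbered 5 with quantile normalization, with TPM scaling and with limma voom. Slc8a1, the sodium-calcium exchanger that removes calcium from the cardiomyocyte, rose by 1.58 (SE 0.12, limma, Benjamini-Hochberg adjusted p = 3.3e-05), at 16.0 ± 1.76 FPKM (SD, n = 3) with Alox5KO medium and 4.67 ± 0.477 FPKM (SD, n = 3) with WT medium. The store-operated channel gene Orai1 and Asph, whose locus also encodes junctin, both fell by 0.68. Calr, calreticulin of the endoplasmic reticulum, was the most abundant of that list and fell by 0.85.

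Of 25 conduction and energy genes of the cardiomyocyte, 11 were tested, of which 4 rose and 0 fell (limma at adjusted p under 0.05, with 1 fall at unadjusted p under 0.05 and 0 by limma voom), beside 10% and 10.6% of all tested genes. Their median log2 fold change was 0.25. The risers were Hspb7, a cardiac small heat shock protein, by 2.02, the fatty acid-binding protein gene Fabp3 by 1.66, Bves, which encodes a membrane protein of muscle, by 1.63, and the brain-type creatine kinase Ckb by 0.98. Bves averaged 2.63 ± 0.188 FPKM (SD, n = 3) with Alox5KO medium and 0.176 ± 0.0930 FPKM (SD, n = 3) with WT medium, and so passed the filter only through its level with Alox5KO medium. Gja1, the gap junction protein connexin 43, was the most abundant, at 50.9 ± 11.1 FPKM (SD, n = 3) with Alox5KO medium and 77.1 ± 18.7 FPKM (SD, n = 3) with WT medium. Its log2 fold change of -0.58 did not pass (limma, Benjamini-Hochberg adjusted p = 0.11), and it was the gene that fell at an unadjusted p under 0.05. Without WT-medium replicate 3 it was called lower (limma, Benjamini-Hochberg adjusted p = 0.017).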

How the data were processed

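RNA was isolated with TRIzol and made into NEBNext Ultra libraries, per the labels' protocols. Without giving their roles, the submitters' processing notes name featureCounts 1.5.0-p3, HISAT2 2.0.5, fastp, CASAVA 1.8, mm10 and DESeq2 1.20.0. Although the organism label is mouse, 32883 of 33682 rows carry rat identifiers and 0 mouse ones. The authors deposited 1 column of FPKM per sample with the gene lengths, per the file headers. FPKM times length was a whole multiple of a step per column for 100% of values above 0 (tolerance 0.05 reads), which gave the reads.

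Log2(FPKM + 1) was compared with limma 3.58.1 in R 4.3.3 (trend, robust prior, no replicate block), Benjamini-Hochberg at 0.05, for genes averaging at least 1 FPKM. Such fold changes understate those of low genes. Scripts were tested on simulated data. Members and lists were chosen with earlier results of these data known. Per-library values are given for members of at least 1 FPKM and the defining markers. Of each other list the most abundant gene and up to 4 called genes of smallest p were eligible to be named. Alternatives were pseudocounts 0.1 and 0.5, no filter, a mean of 5 FPKM, quantile and TPM scaling, plain moderation, limma voom on reads, the replicate block and each library left out. No replicate pair matched within sampling noise, the lowest chi-square per degree of freedom being 6.72.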

Additional observations from a re-analysis of the deposited data

How the results depend on the processing

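Of 19 genes with a fold change, 222 of 243 values under the alternatives kept their direction and their side of the threshold, 10 lost and 7 gained a call, and 4 reversed. The reversals were all of genes that were not called: Nppa at -0.017, Tnnt3 at 0.080 and Nppb at -0.082 without WT-medium replicate 3, and Nppb at -0.026 without Alox5KO-medium replicate 2. With a library left out, Nppa ran from -0.017 to 0.42, Tnnt3 from -0.25 to 0.080 and Nppb from -0.082 to 0.066. Where the filter was a mean of 5 FPKM, 1 member was called higher, since fewer were tested. The members' median of 0.50 became 0.11 with no filter, -0.27 with a mean of 5 FPKM and 0.76 with limma voom on reads, and ran from 0.33 to 0.63 with a library left out. All tested genes called higher ran from 791 to 1226 and those called lower from 862 to 1325 with a library left out, the lowest without WT-medium replicate 1. For members under 1 FPKM fitted on reads, rises numbered 1 to 2 and falls 0 to 1. With the replicate block 6 members rose and 1 fell, Myl3 (limma, Benjamini-Hochberg adjusted p = 0.031) and Actn2 (limma, Benjamini-Hochberg adjusted p = 0.041) among the rises, and Gja1, not a member, was called lower (limma, Benjamini-Hochberg adjusted p = 0.0038). Same-numbered libraries deviated from their group means with correlations of -0.096, 0.105 and 0.17. Alox5KO-medium replicates 2 and 3 thus correlated best with the WT-medium library of their number, replicate 2 nearly as well with WT-medium replicate 1 (0.101). Alox5KO-medium replicate 1 correlated best with WT-medium replicate 2 (0.078). Matching by number was not uniform, and the main fit did not treat the samples as paired. The cause of each of the other changes was not tested. Depth limits the 11 members that averaged under 10 reads and under 1 FPKM.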

Other observations

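Titin and telethonin, which had no row under their symbols, appear in the table's descriptions of rows with other names. A row of 1323 bases described as titin had 7, 2 and 1 reads with Alox5KO medium and 3, 2 and 0 reads with WT medium. A further row so described, of 1965 bases, had 1, 2 and 0 reads with Alox5KO medium and 0 in each WT-medium library. The row described as telethonin was listed at 0 in all 6 libraries. These rows were not counted among the members.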
